A study of Mus musculus with 6 samples.

Results

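The small RNA tables of a mouse cell line also list entries that carry the name of a miRNA from another species. Such an entry was recognised by its name, which begins with neither mmu, the prefix of mouse miRNAs, nor PC, the prefix of predicted candidates. Of the 1080 rows of the tables, 204 met this rule, beside 754 mouse-named rows and 122 predicted candidates. Rows with the same value in all 6 libraries were taken once, which left 172 entries. The prefixes numbered 17, led by hsa (human, 41 rows), bta (cow, 38), cgr (Chinese hamster, 31), oan (platypus, 17), mdo (opossum, 16), rno (rat, 13) and ssc (pig, 12).

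The cells were Neuro2A (N2A), an established mouse neuroblastoma line, in 2 groups of 3 libraries. One group received a negative control siRNA (si-NC) and the other an siRNA against circCpsf6 (si-circCpsf6), a circular RNA named after the gene Cpsf6, each at a final concentration of 100 nM. No further allele or agent is given, and no label tells whether the 3 libraries of a group stem from different cultures. The p-values therefore reflect no more than how these 6 libraries vary, which may be technical. The tables hold miRNA-type entries only, so the level of circCpsf6 was not analysed here. The mouse-named entry miR-7a-5p_R+1, a form with a longer 3′ end of a miRNA abundant in neuroendocrine cells, ran from 88548 to 364458 normalized reads.

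A miRNA is cut from a hairpin precursor into a short guide RNA, and bases 2 to 8 of it, the seed, pair with target transcripts. Many miRNAs are nearly identical among mammals, so a read from a mouse miRNA can fit the record of another species when its end is longer, shorter or changed. Other names, such as miR-1260, miR-4454 and miR-2478, belong to database entries whose sequences are known to overlap fragments of tRNA, rRNA or small nuclear RNA, which every cell makes in quantity. Each name carries a suffix, read here as follows: L and R give bases added (+) or missing (-) at the 5′ and 3′ ends, and 1ss24TA gives 1 substitution, at position 24 from T to A.

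The entries' own sequences were not in the files used here, so the mouse miRNAs of the same number are shown instead, from RefSeq (GRCm38.p6), 5′ to 3′ with the seed in capitals. They are mouse relatives of some of the entries described below. No such relative can be shown for the 77 entries whose number no mouse-named entry carries, which held 80.0% of the summed values.

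mmu-miR-194-5p: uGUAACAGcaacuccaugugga

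mmu-miR-22-3p: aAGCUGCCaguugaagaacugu

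mmu-miR-342-3p: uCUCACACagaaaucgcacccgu

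mmu-miR-30a-3p: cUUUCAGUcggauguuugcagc

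mmu-miR-27b-3p: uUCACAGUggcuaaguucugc

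mmu-miR-7a-5p: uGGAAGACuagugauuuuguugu

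mmu-miR-17-5p: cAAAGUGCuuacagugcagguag

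mmu-miR-106b-5p: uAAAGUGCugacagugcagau

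In GRCm38, miR-194-5p lies at chr1:185313325-185313346, in an intron of the antisense gene 2010103J01Rik, and again at chr19:6264658-6264679, outside other genes. miR-22-3p lies at chr11:75463772-75463793 in an exon of its host transcript Mir22hg. miR-342-3p lies at chr12:108658680-108658702 in an intron of Evl, which encodes an actin regulator. miR-30a-3p lies at chr1:23272315-23272336, outside other genes, and miR-27b-3p at chr13:63300760-63300780 in an exon of 2010111I01Rik. miR-7a-5p has a copy at chr13:58392841-58392863 in an intron of Hnrnpk and another at chr7:78888295-78888317. miR-17-5p lies at chr14:115043684-115043706 in an exon of Mir17hg. miR-106b-5p lies at chr5:138165787-138165807 in an intron of Mcm7 and shares the seed AAAGUGC with miR-17-5p. Mouse mature sequences were matched to entries by number, and by letter and arm where the entry's name carries them. Among the 39 so matched, 34 distinct seeds were found, and 4 of them were carried by more than 1 sequence.

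The names differed in form from the mouse ones. Only 16 of the 204 rows (7.84%) carried an unchanged name, against 398 of 754 mouse-named rows (52.8%). A longer 3′ end was named in 97 rows (47.5%, mouse 23.5%), a substitution in 82 (40.2%, mouse 7.03%) and a predicted arm of a precursor in 35 (17.2%, mouse 5.57%). Of the 86 substitutions so named, 10 (11.6%) changed a base at position 20 or later to A, and none of the 53 in mouse-named rows did. These counts describe the names and have no replicates.

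For 10 entries with an unchanged 5′ end, 13 substitutions could be set on the mouse sequence, with positions counted from 1 at the 5′ end of the named miRNA and T written for U. The mouse sequence had the named base at 8 of them, among them T24A in bta-miR-7_R+1_1ss24TA, T22A in ssc-miR-130b-5p_R+1_1ss22TA and C22A in hsa-miR-296-3p_R+1_1ss22CA. It had the replacing base at 4, so that the entry matched the mouse base there. Those were A20G in hsa-miR-378d_R+4_1ss20AG, G21A in rno-miR-450a-5p_2ss6CT21GA, A1T in mdo-miR-106-5p_R-1_2ss1AT21TC and G22C in hsa-miR-378c_R-2_2ss21AG22GC. It had neither base at the remaining one, A21G of the last entry. T24A and G22C lie past the 3′ end of the mouse mature miRNA, and the base there was read from the mouse hairpin.

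The entries named after other species held a small share of each library. Values are the authors' normalized read numbers, rounded to whole numbers, so the read depth behind them is unknown and no counting interval is given. Summed over all entries, the libraries held 2516481 to 3219618 normalized reads. The share held by these entries was 0.477%, 0.542% and 0.642% in replicates 1 to 3 of the control. In replicates 1 to 3 of si-circCpsf6 it was 0.434%, 0.644% and 1.18%. The means were 0.554% ± 0.0833 and 0.752% ± 0.383 (SD, n = 3 each). The groups overlapped, and si-circCpsf6 replicate 3 stood above the other 5 libraries. Without it the difference of 0.198 percentage points became -0.0145.

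One library listed far fewer of them. The number with a value of at least 1 was 131, 130 and 65 in the si-NC libraries, against 131, 137 and 113 in si-circCpsf6. In si-NC replicate 3, 5 entries had a value from 1 to 18, against 49 to 75 in each of the other libraries. Of the 82 entries listed in all 5 other libraries, 30 were at 0 there, with means of up to 71.6 in those 5. The same library lists 14 such low values over all entries of the tables and the others 167 to 299, so the values below that rest on low entries are given with this library's value shown, and some also without it.

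The values were concentrated in few entries. The 4 highest held 59.8% of the summed values of the 172 entries and the 10 highest held 76.5%. A mean of at least 100 was reached by 21 entries, and 52 were above 0 in every library. The highest entry, cgr-miR-1260, had 1844, 2330 and 3809 normalized reads in si-NC against 1786, 4530 and 10646 in si-circCpsf6. si-circCpsf6 replicate 3 was the highest library and replicate 1 the lowest, so the groups overlapped.

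No entry passed the test across all entries, in which limma was fitted to log2(value + 1) with Benjamini-Hochberg adjustment. The fit covered 915 entries with a mean of at least 1, and 160 of the 172 named after other species were among them. Past an adjusted p of 0.05 there were 0 of the 160, against 0 of 915 (0%). At an unadjusted p under 0.05, 12 were higher in si-circCpsf6, where the share over all entries was 3.28%, and 2 were lower, where it was 2.95%. Of the 12, 5 were at 0 in every si-NC library and had passed the filter only through si-circCpsf6, so their calls support nothing. Over the 160, 14 entries were at 0 in every si-NC library and 7 in every si-circCpsf6 library. Both directions together made 14 of 160 (8.75%) against a background of 6.23%. The 3 libraries of each group did not overlap in 17 entries higher in si-circCpsf6 and 3 lower, where 6.78% and 4.92% of all entries did so. Together that was 12.5%, against 11.7% over all entries. The 17 include the 5 entries at 0 in every si-NC library named above, whose lack of overlap supports nothing either. In the authors' deposited table, 7 of the 204 rows (3.43%) had a p under 0.05, against 3.7% of all rows.

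The median log2 change was 0.32 over the 160 entries and 0.09 over all 915. Leaving out si-NC replicate 3 made it 0.06, and leaving out si-circCpsf6 replicate 3 made it 0.52. Log2 changes here are on the log2(value + 1) scale, which shrinks the changes of low values. For entries at 0 in si-NC replicate 3 alone, they can instead exceed or reverse the change of the means. bta-miR-378_R+1_1ss22CA had means of 50 in si-NC and 35.3 in si-circCpsf6, but a log2 change of 0.77.

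By species prefix, the cgr entries had the highest median log2 change of the prefixes with at least 5 tested entries, 0.94 over 20, with 16 above 0 and 2 below. Most of them carry the number miR-1260. The medians were 0.58 over 32 hsa entries (21 above 0), 0.29 over 31 bta entries (18 above 0) and 0.35 over 16 oan entries (11 above 0). For the 12 mdo entries the median was 0.06, with 6 above 0 and 6 below, and for the 8 rno entries it was -0.17, with 3 above 0. These medians and counts include entries at 0 in every library of 1 group, and they are descriptions without a test.

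**Figure D1:**
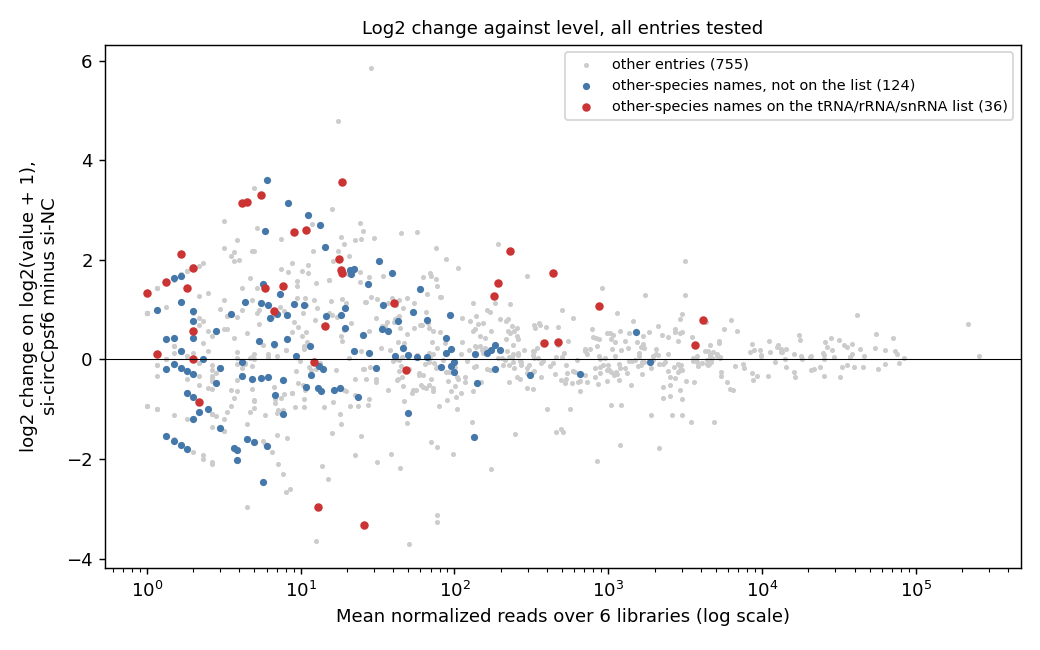
Log2 change (si-circCpsf6 minus si-NC, vertical axis) against the mean normalized reads of the 6 libraries (log scale, horizontal axis), 1 point per tested entry. Entries on the tRNA, rRNA and small nuclear or nucleolar RNA name list (red, 36) lie mostly above 0, with a median of 1.39. Some of them were at 0 in every si-NC library, which fixed their direction in advance. Other entries named after other species are blue (124) and the rest of the tables grey (755).

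Entries whose numbers belong to the tRNA, rRNA and small nuclear or nucleolar RNA names made up the larger part of the values. This list of 38 numbers matched 37 entries, of which 36 were tested, and they held 58.1% of the summed values. They came from 8 numbers, led by miR-1260 (14 entries), miR-2478 (7), miR-4454 (7) and miR-1246 (3). Their sums were 6897, 7681 and 8480 in the si-NC libraries, against 5238, 12539 and 24392 in si-circCpsf6. si-circCpsf6 replicate 1 was the lowest of the 6 libraries and replicate 3 the highest, so the groups overlapped. The fold between the mean sums was 1.83, and 1.16 without si-circCpsf6 replicate 3.

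Within the list, 30 of the 36 had a log2 change above 0 and 5 below, where 55.5% of all entries were above 0. Some of the 30 were at 0 in every si-NC library and had passed the filter only through si-circCpsf6. Their direction was therefore fixed in advance. The median, which includes them, was 1.39, and 0.75 without si-circCpsf6 replicate 3. With values under 20 set to 20 in every library it was 0, with 17 above 0 and 5 below. None passed the adjusted test, and 10 (27.8%) had an unadjusted p under 0.05, read beside the 6.23% of all entries. Of those 10, 4 were at 0 in every si-NC library. With values under 20 set to 20, 1 of the 36 had such a p, and among the 20 with a mean of at least 10 it was 4. Of the 36, 17 had their highest value in si-circCpsf6 replicate 3. Entries of the same number are not independent of each other. miR-1260 and miR-4454 alone gave 20 of the 36, 19 of the 30 above 0 and 7 of the 10 with an unadjusted p under 0.05. The list was also written with earlier results of these data known, so these counts are descriptions. The 11 tested mouse-named entries of the same list went the other way, with 2 above 0, 9 below and a median of -0.94. Their sums were 9121, 12769 and 5275 in si-NC against 4759, 7158 and 8351 in si-circCpsf6, and none passed the adjusted test either. The difference between these 2 sets of entries was not tested.

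**Figure D2:**
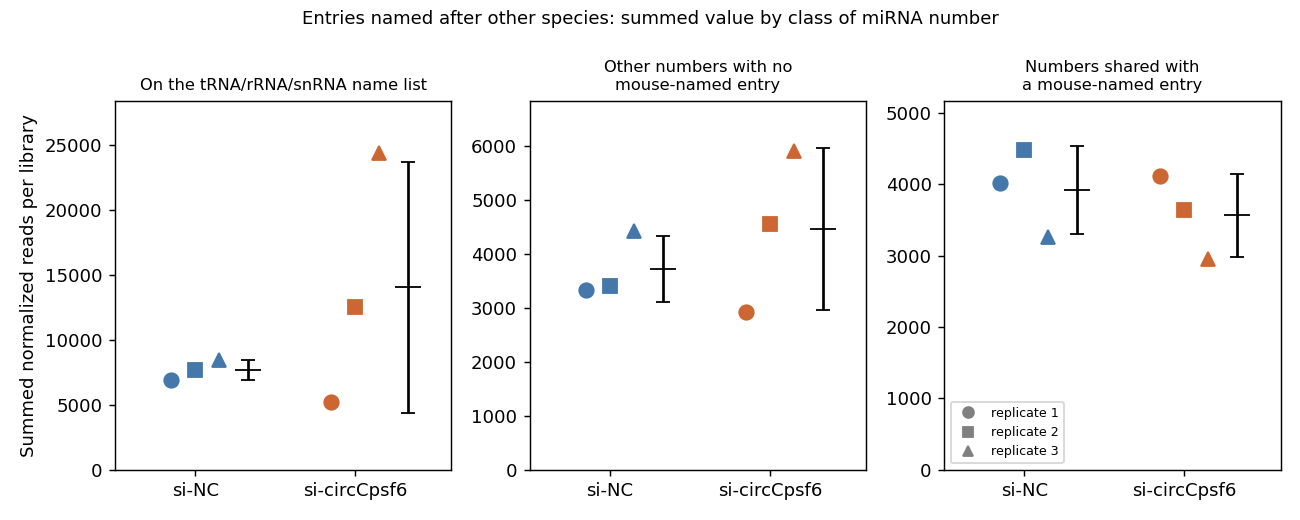
Summed normalized reads per library (vertical axes, from 0) for the classes of entries named after other species, with 1 point per library, numbered by replicate, and a bar at each group's mean. In the list class the 3 si-NC libraries sit between 6897 and 8480 while si-circCpsf6 runs from 5238 to 24392, and entries that share a number with a mouse-named entry stay between 2954 and 4485.

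Besides cgr-miR-1260_R+1_1ss18AC, which was joined with a row of another number, the number miR-1260, whose record overlaps a tRNA fragment, took 21 rows and 14 entries. Their sums were 2007, 2510 and 4074 in the si-NC libraries, against 2097, 5090 and 11818 in si-circCpsf6. The groups overlapped, and the fold of 2.21 was 1.25 without si-circCpsf6 replicate 3. The unmodified name held 91.9% to 93.5% of these sums in si-NC and 85.2% to 90.1% in si-circCpsf6, and those ranges did not meet.

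The entry cgr-miR-1260_R+1, 1 base longer at the 3′ end, had 74, 72 and 147 normalized reads in si-NC against 185, 240 and 437 in si-circCpsf6. Every si-circCpsf6 library was above every si-NC library. The log2 change was 1.53 (SE 0.50), with an unadjusted p of 0.015 and an adjusted p of 0.459 in limma. Its part of the miR-1260 sum was 3.69%, 2.87% and 3.61% against 8.82%, 4.72% and 3.7%, highest in the si-circCpsf6 library with the lowest sum.

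Other miR-1260 entries with changed ends were low. cgr-miR-1260_L-1R+1 had 5, 2 and 0 against 20, 20 and 65 normalized reads, with an adjusted p of 0.364 in limma. Its log2 change of 3.55 was 2.86 without si-NC replicate 3 (adjusted p of 0.166 in limma) and 0.55 with values under 20 set to 20. Entries cgr-miR-1260_L-1R+2 and cgr-miR-1260_R+2 were listed at 0 in every si-NC library. In si-circCpsf6 the first had 4, 8 and 15 and the second 6, 6 and 13. The groups of each of these entries did not overlap. All values but the 65 of cgr-miR-1260_L-1R+1 lay at or under 20, the range of which si-NC replicate 3 lists few. The entries cgr-miR-1260_L-1R+2 and cgr-miR-1260_R+2 had passed the filter only through si-circCpsf6.

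The number miR-4454, a human name that overlaps a tRNA fragment, had sums of 1003, 211 and 1344 in the si-NC libraries, against 824, 1262 and 5009 in si-circCpsf6. si-NC replicate 2 was lowest and si-circCpsf6 replicate 3 highest. The fold of 2.77 was 1.22 without si-circCpsf6 replicate 3 and 3.90 without si-NC replicate 3. Its largest entry, hsa-miR-4454_L-2, had 570, 113 and 947 against 334, 652 and 2641, which overlapped.

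The predicted 3′ arm, hsa-mir-4454-p3, had 139, 20 and 102 normalized reads in si-NC against 185, 211 and 715 in si-circCpsf6. The groups did not overlap. The log2 change was 2.18 (SE 0.82), with an unadjusted p of 0.0282 and an adjusted p of 0.585 in limma. The entry hsa-miR-4454_L-3R+1 had 258, 61 and 222 against 240, 365 and 1473. There the lowest si-circCpsf6 library lay inside the si-NC range, and the adjusted p was 0.738.

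The number miR-2478, a cow name that overlaps a tRNA fragment, had the least different sums of the 3 large ones. They were 3440, 4519 and 2574 in the si-NC libraries, against 2048, 5674 and 6431 in si-circCpsf6, a fold of 1.34. bta-miR-2478_L-2 held most of it, with 2895, 4005 and 2331 against 1627, 5004 and 6006. Its log2 change of 0.29 (SE 0.49) became -0.07 without si-circCpsf6 replicate 3. bta-miR-2478_L+2, with a 5′ end 4 bases further out, had 445, 446 and 166 against 355, 572 and 317. The part of L+2 in the miR-2478 sum was 12.9%, 9.87% and 6.45% in si-NC against 17.3%, 10.1% and 4.93% in si-circCpsf6, lowest in replicate 3 of both groups.

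The remaining list entries differed in level and direction. hsa-miR-7977_1ss6AG had 364, 298 and 432 against 189, 470 and 1081, and its log2 change of 0.34 was -0.27 without si-circCpsf6 replicate 3. The number miR-1246, which overlaps the small nuclear RNA U2, summed to 9, 0 and 29 against 55, 23 and 38 over 3 entries. That sum leaves out bta-miR-1246_L+1R+1, which was joined with a row of another number and had 0, 5 and 0 against 0, 4 and 0. The miR-1246 entry bta-mir-1246-p3_1ss18GA was at 0 in every si-NC library and at 19, 11 and 3 in si-circCpsf6. bta-mir-1246-p3_1ss2CT was at 0 in si-NC and at 4, 3 and 3.

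The names that overlap rRNA had lower means in si-circCpsf6. The entry bta-mir-2904-2-p3_1ss16TC, whose values are the same as those of its p5 twin, had 21, 20 and 27 normalized reads in the si-NC libraries, against 2, 0 and 8 in si-circCpsf6. The groups did not overlap, and the log2 change was -2.97 (SE 1.04), with an unadjusted p of 0.0206 and an adjusted p of 0.552 in limma. These values are low: with values under 20 set to 20, every si-circCpsf6 value equals the lowest si-NC value. bta-mir-2887-1-p5_1ss19CG had 46, 106 and 0 in si-NC against 0, 4 and 0 in si-circCpsf6. Its si-NC replicate 3 was at 0, so the groups overlapped.

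**Figure D3:**
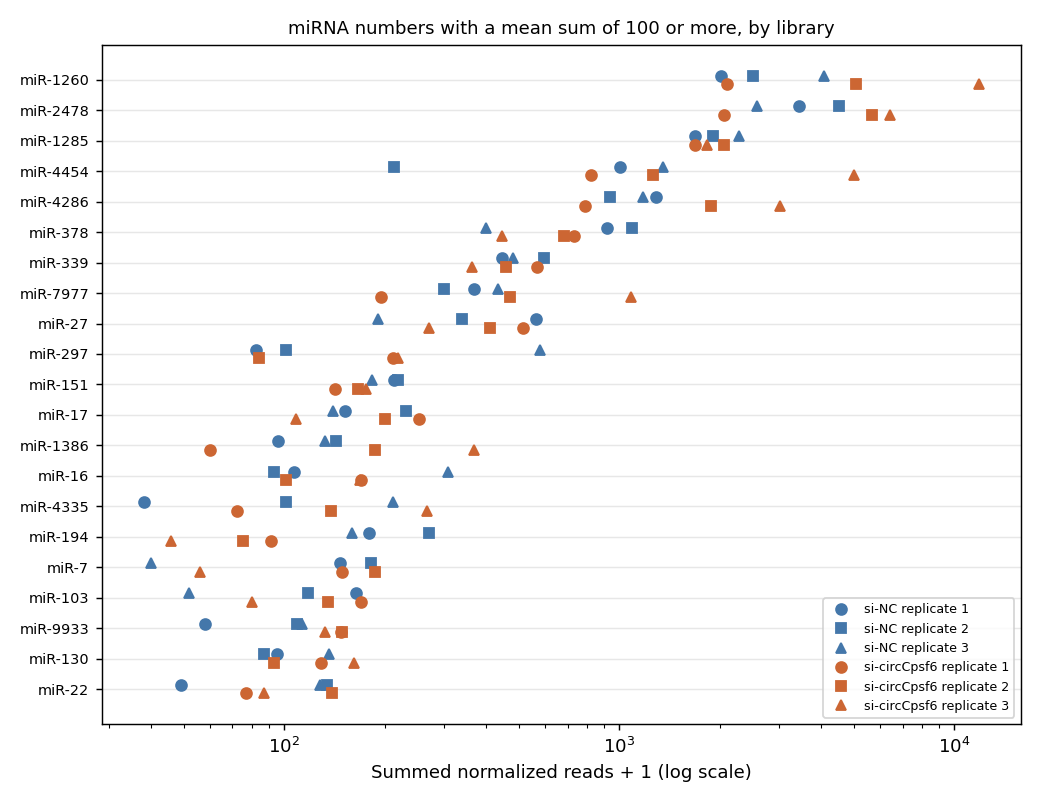
Summed normalized reads per library (log scale) for the 21 miRNA numbers with a mean sum of at least 100, si-NC and si-circCpsf6 in separate colours with each library as a point. The si-circCpsf6 points of miR-1260 reach 11818 and those of miR-4454 reach 5009, both in replicate 3, while miR-1285 stays between 1678 and 2277.

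Outside the list, 40 entries had numbers that no mouse-named entry carried. Their sums were 3331, 3405 and 4423 in the si-NC libraries, against 2918, 4558 and 5916 in si-circCpsf6, a fold of 1.20 that was 1.00 without si-circCpsf6 replicate 3. The highest of them, ssc-mir-1285-p3_1ss24TA, a predicted 3′ arm of a pig precursor, had 1629, 1827 and 2277 against 1661, 2015 and 1819. Its log2 change was -0.05 with a 95% interval of -0.64 to 0.54. hsa-miR-4286_R+1 had 1288, 937 and 1177 against 788, 1876 and 3019, lowest in si-circCpsf6 replicate 1 and highest in replicate 3. Its adjusted p was 0.886 in limma.

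The pig name miR-4335 and the platypus name miR-1386 varied among their own forms. ssc-mir-4335-p5_1ss3CG had 28, 86 and 170 against 53, 81 and 150, and ssc-mir-4335-p5_1ss1GA had 5, 11 and 19 against 18, 49 and 92. The latter made up 9.05% to 13.5% of the miR-4335 sum in si-NC and 25.4% to 35.8% in si-circCpsf6, and these parts did not overlap. Its own values did overlap, with an adjusted p of 0.738 in limma. oan-miR-1386 had 78, 124 and 131 against 36, 148 and 298, which overlapped. The longer oan-miR-1386_L+4 had 11, 8 and 0 against 17, 22 and 28, which did not, with an adjusted p of 0.738 in limma. Its log2 change of 2.27 was 1.14 without si-NC replicate 3. cja-miR-9933_L+2, a marmoset name, had 39, 90 and 75 against 126, 129 and 105, without overlap and with an adjusted p of 0.738 in limma.

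Entries that share their number with a mouse-named entry were 88, of which 85 were tested. Their sums were 4016, 4485 and 3256 in si-NC against 4112, 3634 and 2954 in si-circCpsf6, a fold of 0.91. Of the 85, 51 had a log2 change above 0 and 34 below, with a median of 0.17. It was -0.18 without si-NC replicate 3, -0.0084 without si-circCpsf6 replicate 1 and 0.61 without si-circCpsf6 replicate 3, where the median of all entries was -0.06, 0.09 and 0.15.

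For 63 tested entries there was a tested mouse-named entry of the same number, and these were 46 distinct mouse-named entries. Letter and arm were matched only where the entry's name carries them. Where several mouse-named entries fitted, the one of highest mean was taken, which lowers the percentages that follow. The entry named after another species was under 1% of its mouse counterpart in 48 cases and under 10% in 58, with a median of 0.189%. oan-miR-27b-3p_R+1 had 93 to 350 normalized reads beside 188459 to 366138 for mouse miR-27b-3p. cpo-miR-7-5p_R+1, a guinea pig name, had 36 to 92 beside the mouse miR-7a-5p_R+1 entry given above. Only 1 of the 63 exceeded its counterpart in the mean. The log2 changes of entry and counterpart had the same sign in 39 of the 63, all within the same 6 libraries.

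**Figure D4:**
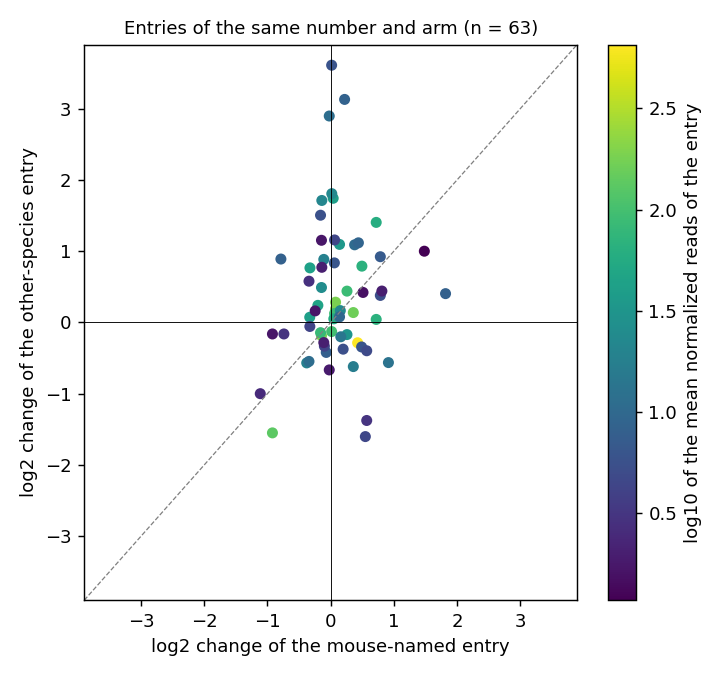
Log2 change of each entry named after another species (vertical axis) against that of its mouse-named counterpart (horizontal axis), with a dashed line of equality. Counterparts have the same number, and the same letter and arm where the entry's name carries them. The 63 pairs are coloured by the log10 of the entry's mean normalized reads. The low entries spread over a wider vertical than horizontal range, and the pair at -1.55 and -0.92 is miR-194-5p.

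The entry oan-miR-194-5p_R+1, a platypus name with 1 extra base at the 3′ end, was 1 of the 3 entries with lower values in all si-circCpsf6 libraries. It had 178, 264 and 158 normalized reads in the si-NC libraries, against 86, 74 and 45 in si-circCpsf6. The groups were 45 to 86 and 158 to 264 and did not meet. The log2 change was -1.55 (SE 0.47), with an unadjusted p of 0.0107 and an adjusted p of 0.425 in limma. Mouse miR-194-5p itself had 1158, 2105 and 1550 against 838, 968 and 685, also without overlap, with a log2 change of -0.92. The entry amounted to 15.4%, 12.5% and 10.2% of the mouse one in si-NC against 10.3%, 7.64% and 6.57% in si-circCpsf6. These ratios overlapped, lowest in replicate 3 of each group.

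In other pairs the changes of entry and counterpart are given side by side, and no difference between them was tested. bta-miR-342_R-3, 3 bases shorter than the cow record, had 22, 7 and 19 against 32, 33 and 122, which did not overlap. Its log2 change was 1.74 (SE 0.83, adjusted p of 0.738 in limma), with a 95% interval of -0.17 to 3.65 that holds the 0.04 of mouse miR-342-3p_R+1. Close pairs were mdo-miR-26-5p_R+3, at -0.14 beside -0.16, and lca-miR-19b_R+2, at 0.17 beside 0.15. mdo-miR-22-3p_R+1 was at 0 in all si-NC libraries and at 7, 18 and 11 in si-circCpsf6. Mouse miR-22-3p had 13065, 22782 and 17561 against 19793, 24336 and 11213, a log2 change of 0.02. The opossum name without the extra base, mdo-miR-22-3p, had 48, 133 and 127 against 69, 120 and 75, which overlapped.

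ssc-miR-30a-3p_L-1R+1 had 0, 12 and 0 against 8, 25 and 22, with si-NC replicate 2 inside the si-circCpsf6 range. Its mouse counterpart had a log2 change of -0.02. hsa-miR-378c_R-2_2ss21AG22GC had 818, 992 and 398 against 663, 624 and 431, and mouse miR-378c_R-1 had 769, 666 and 684 against 940, 889 and 1020. The former was 58.2% to 149% of the latter in si-NC and 42.3% to 70.5% in si-circCpsf6. The log2 change was -0.29 for the first and 0.43 for the second. This pair was matched by its letter, and mouse miR-378c has C at position 21, where the entry has G. Mouse miR-378a-3p_R+1, of the same number but another letter, had a log2 change of -0.33. Which mouse miRNA the entry's reads stem from was not tested. hsa-miR-151b_R+4 had 178, 176 and 139 against 115, 124 and 112, without overlap and with an adjusted p of 0.878 in limma.

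Further entries with a mouse relative did not reach an unadjusted p under 0.05. bta-miR-339a_1ss22CT had 279, 383 and 371 normalized reads in si-NC against 330, 283 and 223 in si-circCpsf6, with a log2 change of -0.31 (SE 0.34, adjusted p of 0.905 in limma). Its form with a longer 3′ end, bta-miR-339a_R+1_1ss22CT, had 166, 212 and 108 against 238, 172 and 140. Both overlapped. rno-miR-17-5p_R+2, from the oncogenic cluster in Mir17hg, had 131, 215 and 112 against 236, 188 and 95, beside 18998 to 34035 for mouse miR-17-5p. hsa-miR-320b_R-1 had 37, 21 and 23 against 43, 40 and 39, which did not overlap, with an adjusted p of 0.905 in limma. bta-miR-7_R+1_1ss24TA had 74, 99 and 0 against 73, 93 and 19, lowest in replicate 3 of each group, and its log2 change of 1.40 was -0.74 without si-NC replicate 3.

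Single libraries set some values. hsa-miR-297_R+2 had 62, 82 and 552 against 164, 64 and 182. hsa-miR-3168_R+1_1ss14AC had 270 in si-NC replicate 3 and 28 in si-circCpsf6 replicate 3 and was at 0 in the other 4 libraries. Of the 81 entries with a mean of at least 10, 25 had their highest value in si-circCpsf6 replicate 3. The number was 16 for si-NC replicate 2 and 16 for si-NC replicate 3, and 7 to 9 for each of the other 3 libraries.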

How the data were processed

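Small RNA libraries were made from total RNA of N2A cells with a TruSeq small RNA kit, per the labels' protocols, and the submitters' processing notes name the mouse build mm9. No source used here names an aligner or a counting rule. The value per entry and library is a score: the authors' deposited normalized read number, rounded to whole numbers. The authors' deposited p-value column was only copied. Since depth is unknown, no count model was used. Rows with identical values in all libraries were taken once. The 7 entries joining rows of different numbers were above 0 in at most 2 libraries. The sums, medians and counts of entries by prefix, number or list leave them out.

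Entries with a mean of at least 1 (915 of 1034) were fitted with limma 3.58.1 (R 4.3.3, trended variance) on log2(value + 1), with Benjamini-Hochberg adjustment over all of them, and the script was tested on simulated data. Sums, shares and medians are descriptions without tests. The entries described and the list of tRNA, rRNA and small nuclear or nucleolar RNA names were chosen with earlier results of these data known. Entries named were those of smallest unadjusted p and highest mean, the highest of each prefix and number, those at 0 in every library of 1 group only, and list entries with a mean of at least 10. hsa-miR-3168_R+1_1ss14AC and lca-miR-19b_R+2 were named after their values were seen, and hsa-miR-378d_R+4_1ss20AG and ssc-miR-130b-5p_R+1_1ss22TA for their substitutions. Mouse sequences and coordinates are RefSeq and GENCODE on GRCm38, and no coordinate of the tables was used.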

Additional observations from a re-analysis of the deposited data

How the results depend on the processing

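Alternatives were another pseudocount (0.1 or 5), no filter, a mean of at least 10, rescaled totals, identical rows kept apart, limma's array weights, each library left out and, chosen after seeing the data, values under 20 set to 20. Entries past the adjusted threshold numbered 0 under all of them but array weights, which gave si-NC replicate 3 a weight of 0.146 and called 4. At an unadjusted p under 0.05, the 12 higher entries became 4 with a mean of at least 10, 20 with rows apart, 23 with array weights, 3 with low values set to 20, and 8 to 15 with a library left out. The 2 lower ones became 1 with pseudocount 0.1, 4 with rows apart, 17 with array weights, 1 with low values set to 20, and 1 to 13 with a library left out, the 13 without si-NC replicate 3. The median log2 change of 0.32 became 0.064 with array weights, 0 with low values set to 20, and 0.058 to 0.52 with a library left out. Through these settings 24 log2 changes were followed. They belong to entries chosen for a small unadjusted p, a high mean or a value of 0 in every library of 1 group only. Of the 24, 4 changed sign, with array weights and with a library left out: bta-miR-2478_L+2 (-0.16, and -0.15 to 0.56), bta-miR-2478_L-2 (-0.34, and -0.073 to 0.87), hsa-miR-7977_1ss6AG (-0.16, and -0.27 to 0.98) and ssc-mir-1285-p3_1ss24TA (0.027, and -0.16 to 0.082). Outside the 24, bta-miR-7_R+1_1ss24TA went from 1.40 to -0.74 without si-NC replicate 3. The cause was not tested. Same-numbered libraries shared deviations with r of 0.044, 0.477 and 0.400. Between libraries of different numbers r ran from -0.442 to 0.189, so the values of replicates 2 and 3 lay above that range. No label states whether same-numbered libraries are pairs, and the main fit left the numbers out. With the replicate block, 0 entries passed the adjusted threshold, 12 were higher and 3 lower at an unadjusted p under 0.05, and the median was 0.32.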
